A study of Mus musculus with 12 samples.

Results

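The genes of the circadian clock described here are *Arntl* (also called *Bmal1*), *Npas2*, *Per1*, *Per2*, *Per3*, *Nr1d1*, *Nr1d2*, *Dbp*, *Tef* and *Hlf*. These 10 genes are all listed among the 23284 genes of each osteoblast library and the 24346 genes of each MC3T3-E1 library. They were chosen by the FPKM of *Dbp*, *Tef*, *Per2* and *Per3*, which had been seen to be higher with PTH, so their values in that comparison are a description and carry no test. The comparison of *Slpi*-overexpressing with mock cells did not enter the choice and is tested.

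RNA-Seq values were available from 3 libraries in each of 4 groups. The vehicle and PTH libraries came from 7AAD-Lin-CD45-ECFP+ osteoblasts that were sorted from the crushed and digested bones of female Col2.3-ECFP mice, in which the type I collagen promoter drives the cyan reporter in mature osteoblasts. The mice were 12 weeks old when treatment began and received vehicle or PTH(1-34), a fragment from the N-terminus of parathyroid hormone. The daily dose was 40 µg/kg, given on 5 days of each week over 3 weeks. Osteoblasts were harvested 24 h after the last injection from mice kept in cycles of 12 h of light and 12 h of dark, and the clock time of harvest is not given in the sources used here. The mock and Slpi libraries came from subconfluent MC3T3-E1 cells, a mouse calvarial preosteoblast line, infected with an empty pMX retrovirus or with pMX carrying *Slpi* and selected with puromycin. No treatment that would synchronise these cultures is described in the methods. The methods state, for the study in general, that biological replicates were taken from different animals. The labels do not say whether the 3 osteoblast libraries of a group are such replicates, and no source used here says whether the MC3T3-E1 libraries of a group came from separate cultures. The *p* values therefore measure the spread between these libraries, which may be technical in part.

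The circadian clock of mammalian cells is a loop of transcription. *Arntl* protein pairs with *Clock* or *Npas2* and activates genes through the E-box, among them the *Per* and *Cry* genes, whose proteins return to inhibit the pair. The same pair drives *Nr1d1* and *Nr1d2*, nuclear receptors that repress *Arntl* and *Npas2* in competition with the ROR receptors, and *Dbp*, *Tef* and *Hlf*, bZIP factors that bind the D-box in output genes and in *Per* genes. High *Per* and *Dbp* with low *Arntl* thus mark one part of the daily cycle and the opposite pattern another. In bone, osteoblasts carry this loop, and it is known to limit their proliferation and bone formation. Both *Per1* and *Per2* are also known to respond to hormones, through cAMP and glucocorticoid signalling, outside the daily loop.

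The promoters of the members were searched for 4 motifs of the loop and of cAMP signalling, on both strands, in the 250 bases before each RefSeq transcription start (GRCm38.p6). The motifs were the E-box CACGTG, the D-box TTATGTAA or TTACGTAA, the cAMP response element TGACGTCA and the ROR element TAGGTCA. The table held 12 windows for 9 of the 10 members. *Per2* is not among them. The following are all the windows of the members that held a motif, which is shown in capitals.
Per1, chr11:69098699-69098948, plus strand, E-box: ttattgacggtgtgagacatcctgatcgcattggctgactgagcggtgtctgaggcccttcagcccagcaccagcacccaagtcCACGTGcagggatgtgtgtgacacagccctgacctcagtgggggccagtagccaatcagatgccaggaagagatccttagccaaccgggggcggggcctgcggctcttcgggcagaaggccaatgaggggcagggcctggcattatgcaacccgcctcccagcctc
Per3, chr4:151044666-151044915, minus strand, D-box: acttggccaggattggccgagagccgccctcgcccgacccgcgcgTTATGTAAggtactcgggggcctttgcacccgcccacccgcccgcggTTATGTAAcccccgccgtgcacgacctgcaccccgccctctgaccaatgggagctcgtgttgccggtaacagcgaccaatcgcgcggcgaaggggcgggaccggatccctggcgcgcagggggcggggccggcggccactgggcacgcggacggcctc
Tef, chr15:81802423-81802672, plus strand, E-box: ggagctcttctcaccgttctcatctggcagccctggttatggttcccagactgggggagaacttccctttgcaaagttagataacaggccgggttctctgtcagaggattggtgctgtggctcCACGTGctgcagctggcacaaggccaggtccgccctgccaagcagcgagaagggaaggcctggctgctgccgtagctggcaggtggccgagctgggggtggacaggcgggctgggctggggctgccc
Tef, chr15:81811164-81811413, plus strand, E-box: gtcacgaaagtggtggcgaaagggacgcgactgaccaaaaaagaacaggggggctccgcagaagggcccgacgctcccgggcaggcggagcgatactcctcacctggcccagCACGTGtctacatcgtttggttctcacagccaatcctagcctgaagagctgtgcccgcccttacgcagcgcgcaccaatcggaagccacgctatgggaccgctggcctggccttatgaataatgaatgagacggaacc
Hlf, chr11:90390918-90391167, minus strand, cAMP response element: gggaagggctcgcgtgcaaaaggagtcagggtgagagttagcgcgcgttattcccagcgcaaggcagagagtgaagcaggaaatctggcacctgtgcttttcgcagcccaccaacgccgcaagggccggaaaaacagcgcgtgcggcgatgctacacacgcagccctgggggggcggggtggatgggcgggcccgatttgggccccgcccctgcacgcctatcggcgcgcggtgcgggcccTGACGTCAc
The E-box began at base -166 of *Per1* and at bases -127 and -138 of the *Tef* windows, counted back from the start. Both copies of the D-box in *Per3*, at bases -205 and -158, had the same letters. The element in *Hlf* began at base -9. Of all 32851 windows of this length, 6.02% held the E-box, 0.931% a D-box, 1.55% the cAMP response element and 2.23% the ROR element. No window of *Dbp*, *Nr1d1*, *Nr1d2*, *Arntl* or *Npas2*, and not the other window of *Per1*, held any of these letters, which says nothing of sites elsewhere in those genes. The match of a motif is a description of the sequence and was not tested against the expression values.

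Levels are given as FPKM, the fragments counted on a gene corrected for transcript length and for library size, which the authors calculated with Cuffnorm. How the libraries were scaled is not given. In sorted osteoblasts, *Per1*, *Per2*, *Per3*, *Nr1d2*, *Dbp*, *Tef* and *Hlf* were higher in every PTH library than in every vehicle library. *Arntl* and *Npas2* were lower in every PTH library, and *Nr1d1* overlapped between the groups. Thus 7 of 10 members lay higher and 2 lower without overlap, and 9 of the 10 passed the filter for testing, which asked that some library reach an FPKM of 1. *Hlf* did not. Of the 13004 genes that passed, 19.5% were higher and 20.9% lower without overlap. Since the choice of the members used this comparison, nothing is read from their share. All differences below are between group means of log2(FPKM + 1), PTH minus vehicle, with the standard error (SE) of the limma fit. They understate the change of genes with a low FPKM. The median absolute difference over the 13004 genes was 0.301. Since these are bulk libraries, fewer cells of a type and less RNA per cell cannot be told apart.

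**Figure D1:**
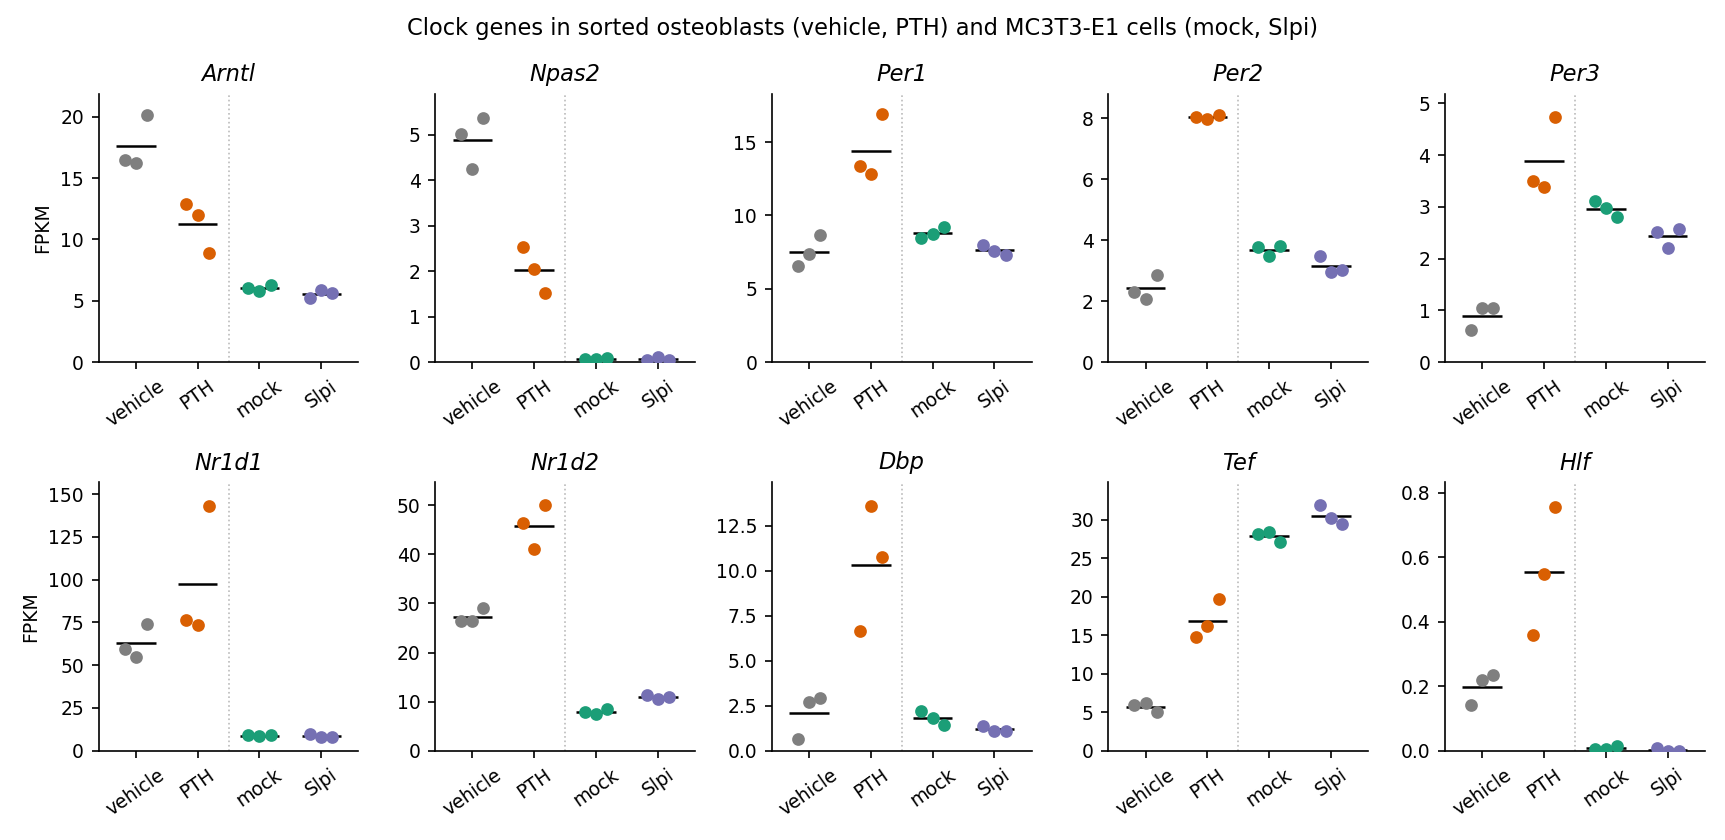
FPKM of the 10 clock genes in each library (points) with the mean of each group of 3 libraries (line), in sorted osteoblasts (vehicle, PTH) and MC3T3-E1 cells (mock, Slpi), on linear axes that start at 0 and differ between genes. *Per2* sits between 7.96 and 8.08 in the PTH libraries and below 3 in the vehicle libraries, while *Arntl* and *Npas2* are lower with PTH and *Nr1d1* overlaps.

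Of the activators of the loop, *Arntl* and *Npas2* were lower in the PTH libraries, while *Clock*, described with the other clock pathway genes, overlapped between the groups. *Arntl*, on chromosome 7 from 113207465 to 113314126 (mm10), was at 16.5, 16.2 and 20.1 FPKM with vehicle. With PTH it was at 12.9, 12.01 and 8.88. Values are given here and below in the order of replicates 1, 2 and 3. Every PTH library lay below every vehicle library, and the difference was -0.61 (SE 0.163). *Npas2*, a partner of *Arntl* that takes the place of *Clock* in some tissues, lies on chromosome 1 from 39193731 to 39363236. Its FPKM was 5.00, 4.25 and 5.35 with vehicle and 2.53, 2.04 and 1.52 with PTH, a difference of -0.96 (SE 0.173). In both genes the lowest library was PTH replicate 3.

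The 3 *Per* genes, which encode the inhibitors of the loop, were all higher with PTH. *Per1*, on chromosome 11 from 69095217 to 69109960, was at 6.56, 7.34 and 8.66 FPKM with vehicle and 13.4, 12.8 and 16.9 with PTH. The difference was 0.85 (SE 0.152). *Per2*, on chromosome 1 from 91415982 to 91459324, had 2.31, 2.08 and 2.86 with vehicle and 8.05, 7.96 and 8.08 with PTH, and its difference was 1.41 (SE 0.133). The PTH libraries were almost equal for this gene, with an SD of 0.0105 on the log2 scale against a median of 0.202 over all genes tested. *Per3*, on chromosome 4 from 151003652 to 151044665, had 0.626, 1.04 and 1.04 with vehicle and 3.51, 3.39 and 4.74 with PTH. Its difference was 1.36 (SE 0.184), and its mean FPKM was 4.31 times that with vehicle, the largest ratio among the *Per* genes.

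The nuclear receptors were the most abundant members in sorted osteoblasts. *Nr1d2*, on chromosome 14 from 18204054 to 18239127, was at 26.5, 26.4 and 29.1 FPKM with vehicle and 46.3, 41.0 and 50.004 with PTH, a difference of 0.72 (SE 0.109) without overlap. *Nr1d1*, on chromosome 11 from 98767932 to 98775333, had 59.7, 55.0 and 74.2 with vehicle and 76.5, 73.3 and 142.8 with PTH. Vehicle replicate 3 lay above PTH replicate 2, and PTH replicate 3 stood far above the rest. The difference of 0.56 (SE 0.262) was 0.26 without PTH replicate 3. *Nr1d1* shares 263 of its 3077 exonic bases (8.55%) with *Thra*, the thyroid hormone receptor gene on the opposite strand, in GENCODE release M21. The SMART-Seq kit does not mark strand, so reads from that stretch cannot be told apart. *Thra* had an FPKM of 16.6, 11.9 and 15.2 with vehicle and 15.7, 25.0 and 21.0 with PTH.

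The bZIP output factors included the largest difference. *Dbp*, on chromosome 7 from 45705088 to 45710203, was at 0.638, 2.70 and 2.94 FPKM with vehicle and 6.66, 13.6 and 10.8 with PTH. The difference was 1.93 (SE 0.385), the largest among the members tested, and it was 1.52 without vehicle replicate 1, the lowest library. *Tef*, on chromosome 15 from 81802421 to 81826863, had 5.93, 6.20 and 5.01 with vehicle and 14.7, 16.2 and 19.7 with PTH, a difference of 1.41 (SE 0.144). *Hlf*, on chromosome 11 from 90336536 to 90390895, stayed below an FPKM of 1 in every library. It had 0.143, 0.218 and 0.236 with vehicle and 0.359, 0.549 and 0.756 with PTH, a difference of 0.37 on the log2(FPKM + 1) scale with no SE, since it was not fitted. Its mean FPKM was 2.79 times that with vehicle.

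The depth behind these low values was read from the steps of the FPKM. Where the smallest step of a library is 1 read, *Dbp* had 6, 20 and 37 reads in the vehicle and 70, 160 and 142 in the PTH libraries. On the same count *Hlf* had 5, 6 and 11 against 14, 24 and 37 reads, and *Per3* had 23, 30 and 51 against 144, 156 and 244. The low value of *Dbp* in vehicle replicate 1 thus rests on few reads. A step may stand for more than 1 read, so these numbers may be too low, and they speak to counting error only. *Dbp* also shares 539 of its 2993 exonic bases (18.01%) with *Sphk2*, a sphingosine kinase gene on the opposite strand. *Sphk2* had an FPKM of 2.93, 3.90 and 3.46 with vehicle and 4.56, 6.27 and 6.44 with PTH, and reads from the shared stretch cannot be told apart.

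Within the PTH group 1 library had the most extreme value for most members. PTH replicate 3 lay farthest from the vehicle mean for 9 of the 10 members, with *Dbp* as the exception. This is a rank only, and for *Per2* the PTH libraries differed little (8.05, 7.96 and 8.08). The same count was not made over all genes, so nothing particular to the members is read from it. Summed osteoblast markers were also highest in PTH replicate 3, at 18583, 16365 and 27627 in the PTH libraries. That library had the highest value of *Per1*, *Per2*, *Per3*, *Nr1d1*, *Nr1d2*, *Tef* and *Hlf* and the lowest of *Arntl* and *Npas2*. In the vehicle group the farthest library varied, with 4, 3 and 3 members farthest from the PTH mean in replicates 1, 2 and 3. The median SD of the 10 members on the log2 scale was 0.166 in the vehicle and 0.208 in the PTH libraries, beside medians of 0.168 and 0.202 over all genes tested. *Dbp* had the largest SD of the members in the vehicle group, 0.707, and *Nr1d1* in the PTH group, 0.534.

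**Figure D2:**
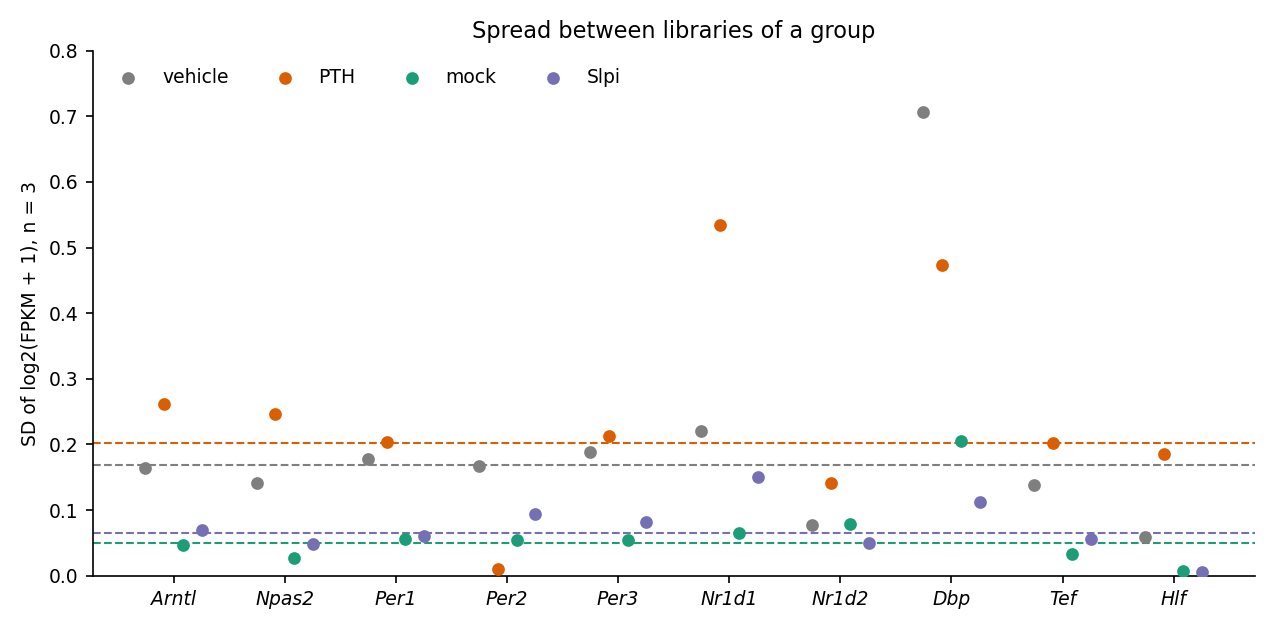
SD of log2(FPKM + 1) between the 3 libraries of each group for the 10 clock genes (points), with the median SD over all genes tested in that group (dashed line of the same colour). *Dbp* with vehicle (0.707) and *Nr1d1* with PTH (0.534) stand above the other members, and the MC3T3-E1 groups vary less than the osteoblast groups for most members.

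The sorted libraries also differed in the transcripts of other cells. Osteoblast markers (*Sp7*, *Bglap*, *Ibsp* and 6 others) summed to an FPKM between 14628 and 17830 with vehicle and between 16365 and 27627 with PTH, and 2 of 9 were called higher. Neutrophil markers summed to 364, 457 and 427 with vehicle and to 2287, 1919 and 673 with PTH, and 6 of the 10 listed were called higher. Platelet markers summed to between 3.51 and 7.13 with vehicle and to 185.5, 148 and 6.47 with PTH. T and NK cell markers summed to between 97.2 and 157.7 with vehicle and to 20.3, 20.5 and 0.608 with PTH, and 5 of the 6 tested were called lower. Mast cell and basophil markers, which were *Cpa3* for the most part since *Mcpt4*, *Ms4a2* and *Fcer1a* were at 0 in all libraries, summed to between 46.7 and 74.5 with vehicle and between 0.269 and 7.71 with PTH. Heart muscle markers summed to 2835 in PTH replicate 2 and to at most 16.7 in the other 5 libraries. Of the platelet markers 1 of 5 tested was called higher, and of the mast cell and basophil markers 1 of 2 lower. None of the 5 heart muscle markers tested was called. Over all genes tested, 6.38% were called higher and 8.85% lower. PTH replicate 3 had the lowest sum of its group on each of these lists except the osteoblast one. It was also lowest on the lists for B cells, endothelium, adipocytes, skeletal muscle, and monocytes and macrophages. It was not the lowest for erythroid markers, which summed to 211.7, 157.0 and 191.2 in the PTH libraries. For neutrophil and platelet markers PTH replicate 3 was the PTH library nearest to the vehicle libraries. For T and NK cell and for mast cell and basophil markers it was the farthest from them. The part of any of these transcripts in the result was not tested. By the steps of low FPKM, which depend on the scaling used, PTH replicate 3 was also the deepest of the osteoblast libraries. Depths relative to vehicle replicate 1 ran from 0.787 to 1.402.

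The other genes of the clock pathway were tested in the same fit. Of 19 genes fixed as a list with earlier results of these data known, 17 passed the filter in sorted osteoblasts, 1 was called higher with PTH and 1 lower by limma at a Benjamini-Hochberg adjusted *p* under 0.05. Over all genes tested 6.38% were called higher and 8.85% lower. The median difference of the 17 genes was 0.20, beside 0.0066 over all genes tested. *Cry2*, a partner of the *Per* proteins, had an FPKM of 5.03, 5.90 and 5.82 with vehicle and 7.40, 8.65 and 8.59 with PTH, and its difference was 0.48 (SE 0.124, limma adjusted *p* = 0.0434). This call was lost when any 1 library was left out, with an adjusted *p* between 0.0743 and 0.149. *Timeless*, which acts in DNA replication and has been tied to the clock, fell by 1.01 (SE 0.184, limma adjusted *p* = 0.0207) from 5.98, 5.80 and 4.71 to 2.90, 1.63 and 2.24. Its difference lay between -1.15 and -0.86 when each library was left out, but its call was lost without vehicle replicate 1 (adjusted *p* = 0.0934) or 2 (adjusted *p* = 0.0906). Nearly all calls of this comparison were lost in those fits, with 1 gene called higher and 0 lower of 12899 tested without vehicle replicate 1, and 0 and 0 of 12835 without vehicle replicate 2. At an unadjusted *p* under 0.05 by limma, 1481 genes were higher and 1700 lower without vehicle replicate 1.

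*Clock*, the usual partner of *Arntl*, had an FPKM of 8.43, 5.82 and 7.38 with vehicle and 7.37, 8.49 and 7.76 with PTH, and the groups overlapped. Its difference was 0.12 (95% interval -0.23 to 0.48, limma adjusted *p* = 0.588). That of *Cry1* was -0.11 (95% interval -0.42 to 0.19, limma adjusted *p* = 0.564). *Nfil3*, a repressor that binds the same D-box as *Dbp*, differed by 0.37 (limma adjusted *p* = 0.112), and *Bhlhe40*, a repressor of *Per* transcription, by 0.22 (limma adjusted *p* = 0.384). *Ciart*, an inhibitor of the *Arntl* complex that the osteoblast files list as *Gm129*, had 0.923, 1.67 and 1.38 with vehicle and 2.12, 2.42 and 2.73 with PTH. Its groups did not overlap, but its difference of 0.57 did not pass (limma adjusted *p* = 0.0804). *Rora*, which activates *Arntl*, differed by 0.72 (limma adjusted *p* = 0.0704) and passed with the replicate number as a block (adjusted *p* = 0.0395), as did *Nfil3* (adjusted *p* = 0.0435).

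Genes that respond to hormones known to act on *Per1*, and immediate early genes, were counted beside the members. The list of 5 glucocorticoid responsive genes holds *Per1* itself. Of its other 4 genes, *Sgk1* was called higher and none lower. *Sgk1* had an FPKM between 324.7 and 415.4 with vehicle and between 681.7 and 820.8 with PTH, a difference of 1.09 (limma adjusted *p* = 0.0133), while *Fkbp5*, *Tsc22d3* and *Zbtb16* did not pass, with differences from -0.19 to 0.23. Of 5 cAMP responsive genes, 2 were called higher and none lower, *Rgs2* with a difference of 0.87 (limma adjusted *p* = 0.0138) and *Sik1* with 0.73 (limma adjusted *p* = 0.0470). Of 8 immediate early genes, *Junb* (0.61, limma adjusted *p* = 0.0454) and *Nr4a1* (0.67, limma adjusted *p* = 0.0368) were called higher and none lower. These counts stand beside 6.38% called higher and 8.85% lower over all genes tested. The immediate early genes summed to an FPKM of 2473, 2192 and 2640 with vehicle and 2992, 2668 and 4337 with PTH, highest in PTH replicate 3. In the MC3T3-E1 libraries, normalized apart, they summed to between 113.3 and 144.2. The cause of these levels was not tested.

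The genes whose pattern over the 6 sorted libraries was nearest to that of *Dbp* were *Kcnn4*, *Avpi1*, *Fgf2*, *Il1rl2* and *Rbp4*. Nearness was the root mean square difference of log2(FPKM + 1), centred on each gene's mean, and ran from 0.382 for *Kcnn4* to 0.437 for *Rbp4* among 13003 genes. *Kcnn4*, a potassium channel gene, had an FPKM of 2.74, 4.78 and 3.92 with vehicle and 14.7, 14.5 and 16.4 with PTH. *Per3* was the 11th, *Per2* the 19th and *Tef* the 22nd in this order. *Per1* came at 146, *Nr1d2* at 460 and *Nr1d1* at 1335. *Arntl* and *Npas2*, which lay in the opposite direction, came at 11017 and 12067. These ranks share the libraries that chose the members and are a description.

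In MC3T3-E1 cells the same genes could be tested. The check of the targeted gene came first: *Slpi* had an FPKM between 377.2 and 395.6 in the mock and between 1848 and 2105 in the Slpi libraries. Of the osteoblast markers, *Sp7*, *Runx2*, *Alpl*, *Ibsp* and *Spp1* were present in the mock libraries, while *Phex* stayed at or below an FPKM of 0.237 and *Bglap* at or below 1.73. T and NK cell markers summed to at most 0.150, neutrophil markers to at most 1.74 and mast cell markers to 0. Of the 10 clock genes, 8 passed the filter, and *Hlf* and *Npas2* did not. By limma at a Benjamini-Hochberg adjusted *p* under 0.05 over 11466 genes, 2 of the 8 were higher with *Slpi* (*Nr1d2* and *Tef*), 4 were lower (*Dbp*, *Per1*, *Per2* and *Per3*) and 2 did not pass (*Arntl* and *Nr1d1*). Over all genes tested, 31.9% were called higher and 28.9% lower, so calls are common in this comparison and the count of members is read against that. Differences are Slpi minus mock. The median absolute difference of all genes was 0.196.

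*Nr1d2* had the largest difference. The mock libraries had an FPKM of 7.86, 7.53 and 8.49 and the Slpi libraries one of 11.4, 10.6 and 10.8. It rose by 0.42 (SE 0.0532, limma adjusted *p* = 0.000241), with an adjusted *p* from 0.000208 to 0.00131 under the alternatives run. Its paralog *Nr1d1* had 9.09, 8.34 and 9.08 in the mock and 9.70, 7.85 and 8.03 in the Slpi libraries. The groups overlapped, and its difference was -0.05 (95% interval -0.23 to 0.12, limma adjusted *p* = 0.589). The 95% interval of *Nr1d2* was 0.30 to 0.54, and the difference between these paralogs in their response to *Slpi* was not tested. *Thra*, which shares exonic bases with *Nr1d1*, had an FPKM of 66.3, 63.5 and 61.6 in the mock and 52, 49.8 and 48.8 in the Slpi libraries. Strand is uncertain in these libraries, so its reads may enter the value of *Nr1d1*.

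The *Per* genes were slightly lower with *Slpi*. *Per1* had an FPKM of 8.45, 8.71 and 9.20 in the mock and 8, 7.54 and 7.29 in the Slpi libraries, a fall by 0.18 (SE 0.0513, limma adjusted *p* = 0.0138). *Per2* had 3.76, 3.49 and 3.81 against 3.47, 2.96 and 3.02 and fell by 0.18 (SE 0.0670, limma adjusted *p* = 0.0473). *Per3* had 3.11, 2.98 and 2.81 against 2.52, 2.21 and 2.57 and fell by 0.21 (SE 0.0673, limma adjusted *p* = 0.0258). All Slpi libraries lay below all mock libraries for each of these genes, as they did for 32.2% of all genes tested, and 34.9% were higher without overlap. With quantile normalization *Per1* passed, and the adjusted *p* was 0.106 for *Per2* and 0.0784 for *Per3*. *Per1* did not pass without mock replicate 3 (adjusted *p* = 0.0567). *Per2* did not pass without any 1 of mock replicates 1, 2 and 3 and Slpi replicates 2 and 3 (adjusted *p* from 0.0525 to 0.139), and *Per3* not without mock replicate 1 or 2 or Slpi replicate 2 (adjusted *p* from 0.0665 to 0.0873).

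*Dbp* was likewise lower, at 2.199, 1.84 and 1.41 in the mock and 1.39, 1.12 and 1.07 in the Slpi libraries. It fell by 0.35 (SE 0.114, limma adjusted *p* = 0.0259), though mock replicate 3 lay just above Slpi replicate 1, and it did not pass with quantile normalization (adjusted *p* = 0.0719) or without any 1 of mock replicates 1 and 2 and Slpi replicates 2 and 3 (adjusted *p* from 0.0660 to 0.0880). *Sphk2*, which shares exonic bases with *Dbp*, had an FPKM of 9.26, 9.47 and 8.88 in the mock and 8.39, 7.96 and 8.08 in the Slpi libraries. Strand is uncertain in these libraries, so its reads may enter the value of *Dbp*, and their part in the fall was not tested. *Tef* had 28.1, 28.4 and 27.1 against 31.9, 30.2 and 29.5, a rise by 0.13 (SE 0.0401, limma adjusted *p* = 0.0248) that did not pass with quantile normalization (adjusted *p* = 0.181) or without any 1 of mock replicates 1 and 3 and Slpi replicate 1 (adjusted *p* from 0.0538 to 0.0894). *Arntl* had 6.05, 5.79 and 6.25 against 5.24, 5.87 and 5.61, and its difference was -0.10 (95% interval -0.22 to 0.03, limma adjusted *p* = 0.154). *Npas2* had an FPKM of at most 0.110 and *Hlf* of at most 0.014 in any of these libraries, and *Hlf* was listed at 0 in Slpi replicates 2 and 3.

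**Figure D3:**
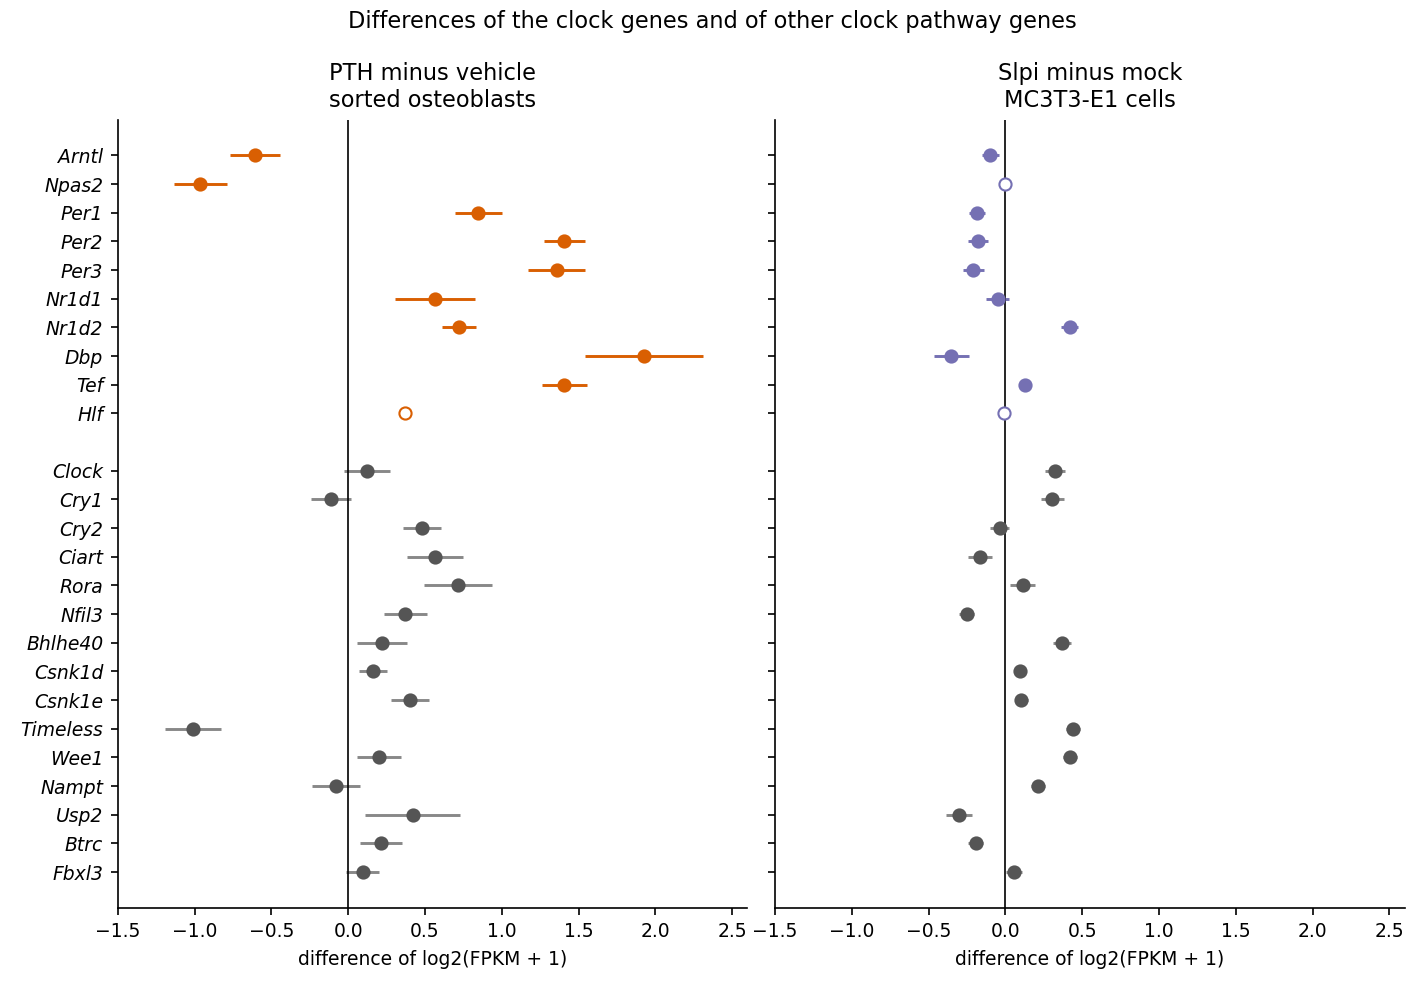
Differences of log2(FPKM + 1) between group means, PTH minus vehicle (left) and Slpi minus mock (right), for the 10 clock genes (coloured) and for the 15 other clock pathway genes tested in both experiments (grey), with bars of 1 SE either side and open circles for genes below the filter. The coloured points span -0.96 to 1.93 on the left and -0.35 to 0.42 on the right.

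Of the 19 other clock pathway genes, 16 passed the filter in MC3T3-E1 cells. Of these, 7 were called higher and 3 lower, beside 31.9% and 28.9% of all genes tested. Their median difference was 0.10, that of the 8 members tested was -0.14, and that of all genes tested was 0.0041. *Timeless* rose by 0.44 (limma adjusted *p* = 8.28e-05), from an FPKM of 9.82, 9.82 and 9.07 to 12.99, 13.4 and 13.6. *Wee1*, a kinase that holds back entry into mitosis and is a target of the clock, rose by 0.42 (limma adjusted *p* = 8.49e-05). *Bhlhe40* rose by 0.37 (limma adjusted *p* = 0.00078), *Clock* by 0.32 (limma adjusted *p* = 0.00247) and *Cry1* by 0.31 (limma adjusted *p* = 0.00811). *Nampt* and *Csnk1d* rose by 0.21 and 0.10, and the call of *Csnk1d* was lost with quantile normalization (adjusted *p* = 0.315) and without mock replicate 2 or 3 or Slpi replicate 1 (adjusted *p* from 0.0549 to 0.0983). The genes that fell were *Usp2* by 0.30 (limma adjusted *p* = 0.0137), *Nfil3* by 0.25 (limma adjusted *p* = 0.00273) and *Btrc*, part of a ubiquitin ligase, by 0.19 (limma adjusted *p* = 0.00844). *Cry2* differed by -0.04 and *Ciart* by -0.16, and neither passed. Of the hormone responsive lists, 4 of 5 cAMP responsive genes were called lower and none higher, with *Sik1* lowest at -0.72 (limma adjusted *p* = 0.000107). Of the 4 glucocorticoid responsive genes tested, 1 was called higher and 2 lower, *Per1* among them. Of the 7 immediate early genes tested, 2 were called higher and 3 lower. The counts of these short lists stand beside the same shares over all genes tested.

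The levels in the mock MC3T3-E1 libraries were set beside those in vehicle-treated osteoblasts. The files of the experiments were normalized apart, and the labels name a different library kit for the cell line, so no test was made across them. *Arntl*, *Npas2*, *Nr1d1*, *Nr1d2* and *Hlf* had a higher FPKM in every vehicle library than in every mock library. *Nr1d1* was between 55.0 and 74.2 in the vehicle and between 8.34 and 9.09 in the mock libraries, and *Npas2* between 4.25 and 5.35 and between 0.061 and 0.096. *Tef*, *Per2* and *Per3* had a lower FPKM in every vehicle library, with *Tef* between 5.01 and 6.20 against 27.1 and 28.4. *Dbp* and *Per1* overlapped. By percentile rank within a library, *Per1* was also higher in every vehicle library and *Per2* overlapped.

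The order of the members by level thus differed between the experiments. The part of the cells in this cannot be told apart from that of the library kit. With vehicle it ran from *Nr1d1* through *Nr1d2*, *Arntl*, *Per1*, *Tef*, *Npas2*, *Per2*, *Dbp* and *Per3* to *Hlf*, by mean FPKM. *Tef* overlapped with *Npas2*, *Dbp* overlapped with its neighbours *Per2* and *Per3*, and the other neighbours did not overlap. In the mock libraries *Tef* came highest, followed by *Nr1d1*, *Per1* and *Nr1d2*, whose ranges met, then *Arntl*, *Per2*, *Per3*, *Dbp*, *Npas2* and *Hlf* without overlap between neighbours. In the PTH libraries *Nr1d1* and *Nr1d2* again led, and *Tef*, *Per1*, *Arntl* and *Dbp*, whose ranges overlapped in part, came before *Per2*, *Per3*, *Npas2* and *Hlf*. *Dbp* overlapped with *Per2* there as well.

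Ratios to *Arntl* within a library do not depend on the scaling of that library, but they may still differ between the experiments through the library kit. *Per2* was 0.140, 0.129 and 0.143 of *Arntl* with vehicle and 0.624, 0.662 and 0.910 with PTH, and 0.621, 0.602 and 0.611 in the mock and 0.661, 0.504 and 0.539 in the Slpi libraries. For this ratio the vehicle libraries were thus the low ones, and the PTH libraries reached or passed the range of the cell line. *Tef* was between 0.249 and 0.383 of *Arntl* with vehicle and between 1.14 and 2.22 times *Arntl* with PTH. It was between 4.34 and 6.08 times *Arntl* in the MC3T3-E1 libraries, so the PTH libraries stayed below the cell line there. *Per3* was between 0.038 and 0.064 of *Arntl* with vehicle, between 0.272 and 0.533 with PTH and between 0.377 and 0.515 in the MC3T3-E1 libraries. *Dbp* was between 0.0388 and 0.167 of *Arntl* with vehicle, 0.516, 1.13 and 1.21 with PTH and between 0.190 and 0.363 in the MC3T3-E1 libraries, so that all PTH libraries lay above all others. *Nr1d2* was between 1.45 and 1.63 times *Arntl* with vehicle, between 3.42 and 5.63 times with PTH, between 1.30 and 1.36 times in the mock and between 1.81 and 2.18 times in the Slpi libraries.

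**Figure D4:**
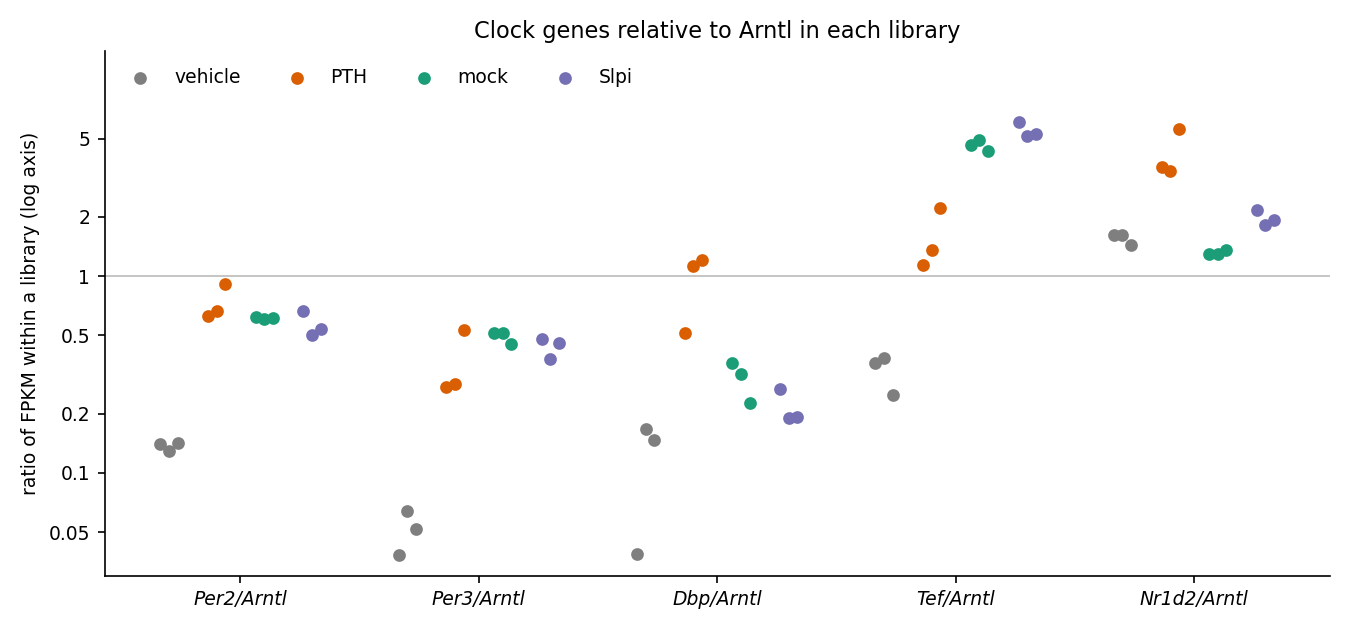
FPKM of 5 clock genes divided by the FPKM of *Arntl* in the same library, on a log axis, with 1 point per library and 3 libraries per group. The vehicle libraries are lowest for *Per2*, *Per3*, *Dbp* and *Tef*, and the PTH libraries are highest for *Dbp* and *Nr1d2*.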

How the data were processed

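The files the authors deposited hold FPKM per gene, 1 file per library. They mapped 75-base single-end reads to mm10 and calculated the values with Cufflinks/Cuffnorm 2.2.1 (TopHat2 2.0.13, Bowtie2 2.2.3 and SAMtools 0.1.19, per the submitters' processing notes), and the gene annotation and scaling option are not given in the sources used here. For the MC3T3-E1 cells the labels name a stranded mRNA kit and the methods the SMART-Seq v4 kit, so strand is uncertain there. Sums of FPKM ran from 400839 to 462460 in osteoblasts and from 541932 to 599746 in MC3T3-E1 cells. How many reads a library held is unknown, and the steps of low FPKM gave only relative depths, which depend on the scaling.

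The experiments were fitted separately on log2(FPKM + 1), with 3 libraries per group and no block for the replicate number. Genes entered if any of the 6 libraries reached an FPKM of 1, which left 13004 in osteoblasts and 11466 in MC3T3-E1 cells. The fit used limma 3.58.1 with the trend option of eBayes, under R 4.3.3. *P* values were adjusted over all of them by the Benjamini-Hochberg method, with a call at an adjusted *p* under 0.05. No exact permutation test of single genes was used, because groups of 3 allow no two-sided *p* below 0.10. The fit was also run on simulated data, drawn independently for each gene from its mean and SD. In these, 200 genes with a mean log2(FPKM + 1) above 2 were changed by a log2 difference of 2. The fit found 184 of them with the osteoblast values, with 11 false calls, and 200 with the MC3T3-E1 values, with 10. Smaller changes, such as most reported here, and links between genes were not simulated.

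Genes were placed with GENCODE release M21 on mm10, and promoter windows came from RefSeq on GRCm38.p6. The members and all gene lists were chosen with earlier results of these data known. The genes named are all members, the other clock genes past the threshold, *Clock*, *Cry1*, *Cry2*, *Nfil3*, *Bhlhe40* and *Ciart*, the 5 genes nearest to *Dbp*, and members of the hormone lists. *Rora* was named after its values were seen. Alternatives tried were the replicate block, no filter, a filter on a mean FPKM of 1, a pseudocount of 0.1, quantile normalization, median-of-ratios scaling, eBayes without trend and leaving out each library in turn.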

Additional observations from a re-analysis of the deposited data

How the results depend on the processing

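In the osteoblasts, 7 members stayed higher without overlap under every alternative (8 when some libraries were left out) and 2 lower. A pseudocount of 0.1 gave larger differences for the low-expressed members, with 1.10 for *Hlf*, 1.70 for *Per2*, 2.01 for *Per3* and -1.24 for *Npas2*. Of the other clock pathway genes, the count called higher with PTH was 3 with the replicate block, 0 without a filter and 0 with eBayes without trend, and it was 0 whichever library was left out. The count called lower was 0 to 1 over the libraries left out. With *Slpi*, the clock genes called higher numbered 1 and those called lower 1 with quantile normalization, and 1 to 2 and 1 to 4 when each library was left out. The cause of these shifts was not tested. Without a filter *Per2* did not pass either (adjusted *p* = 0.0832).

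The following signs turned, all for differences that did not pass the test. When each library was left out, the difference with *Slpi* ran from -0.14 to 0.00032 for *Nr1d1* (the latter without Slpi replicate 2) and from -0.090 to 0.0031 for *Cry2* (without Slpi replicate 1). With PTH, that of *Clock* ran from -0.0045 (without vehicle replicate 2) to 0.23, and *Bhlhe40*, at 0.22 as reported, gave -0.011 with quantile normalization. Deviations of libraries with the same replicate number were weakly correlated across genes (r from 0.029 to 0.102 in osteoblasts and from -0.052 to 0.039 in MC3T3-E1 cells). For libraries with different numbers, r ran from -0.116 to 0.069 in osteoblasts and from -0.099 to 0.105 in MC3T3-E1 cells. Whether the numbers mark libraries handled together was not tested. The block changed the count of all genes called higher and lower with PTH from 830 and 1151 to 1028 and 1234. Without vehicle replicate 2 no gene of the 12835 tested passed by limma after adjustment, against 1415 higher and 1638 lower at an unadjusted *p* under 0.05. Few reads limit *Hlf*, and *Dbp* with vehicle.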
